A study of Populus trichocarpa with 18 samples.

Results

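Steady abundant genes are described here: genes that ranked high by pooled level in both normal and tension wood of black cottonwood (Populus trichocarpa). Their pooled level differed by no more than 2-fold between the woods. Abundant is meant relative to other genes, since the median such gene had 37 counts over all normal libraries together. Counts were pooled over the 9 libraries of each wood and scaled to a sum of 1000000 (CPM). Genes with a tension over normal ratio from 0.5 to 2 were ranked by the smaller of the pooled CPM values, and the first 150 were taken. Of 9 identifiers that the rule leaves out, 5 were among these 150, so 145 genes remained, of 11294 genes with a count in either wood and 4347 with a count in both. The genes were chosen by their measured level in each wood and by the ratio between the woods, so every comparison of the level in tension wood with that in normal wood below is a description without a test. Differences between regions within a wood, and whether these regional differences were unlike in the woods, were not used directly by the rule and were tested. Pooling weighted each region by its counts, so a regional pattern could still enter the pooled ratio. Mean library totals were 81032 in Region 1 and 16085 in Region 3 of tension wood, and 12074 and 8048 in normal wood.

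All libraries came from wild-type trees of 5 to 12 months, raised from branch cuttings in a glasshouse or a growth chamber. Tension wood came from stems held bent for 21 days, and the labels do not state whether the normal wood grew on unbent trees. Regions 1 to 3 were bands of differentiating xylem cut by laser from 16 µm cross-sections of debarked stems, and about 1600000 µm2 of a region went into 1 biological replicate. Each of the 6 groups of wood and region had 3 biological replicates, and neither the number of trees behind a replicate nor the order of the regions from the cambium is stated in the labels.

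Wood forms when cells left behind by the cambium enlarge, lay down a thick secondary wall and die. In broadleaf trees a leaning stem makes tension wood on its upper side, whose fibres often carry an inner layer rich in cellulose. Genes whose transcripts keep a similar share of the messenger RNA while a tissue changes are the usual candidates for reference genes in expression studies. They are typically sought among genes of protein synthesis, protein turnover and the cytoskeleton. A steady share is not a steady amount per cell, because the share also depends on all other transcripts. The deposited tables give only gene identifiers, and the reference gene table matched 0 of them. Apart from recalled identifiers used as markers, no gene below therefore carries a name or a role.

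Library totals ran from 6254 to 20080 counts in normal wood and from 8982 to 89358 in tension wood. A floor of 3 counts corresponded to 480 CPM at the smallest normal total and to 33.6 CPM at the largest tension total, which covers counting error only. All 5 recalled identifiers of secondary wall cellulose synthases, markers of xylem cells that thicken their walls, were listed in both tables. These identifiers were not checked against an annotation, and their summed share was 0.0746% to 0.267% per normal library and 0.971% to 1.20% per tension library. Among them, Potri.002G257900.v4.1 is itself a steady gene, with 43, 18 and 15 counts in Regions 1 to 3 of normal wood. It had 385, 194 and 62 in tension wood, so the marker share and the set are not separate. Each table holds 1 wood, so wood cannot be told apart from separate preparation, sequencing or counting. Across the 4347 shared genes, the Spearman correlation between a normal and a tension library ranged from 0.0565 to 0.146, against 0.581 to 0.631 between normal libraries and 0.658 to 0.900 between tension libraries. Of the 4347 shared genes, 671, or 15.4%, lay inside the ratio band. With levels so weakly related between the woods, a gene could lie in the band by coincidence, which was not tested. The steady genes are therefore not put forward as reference genes.

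The steady abundant genes took nearly the same part of the counts in every group. Their summed share was 10.8% ± 0.218 in normal Region 1, 10.7% ± 0.146 in normal Region 2 and 10.9% ± 0.600 in normal Region 3 (SD, n = 3). Regions 1 to 3 of tension wood had shares of 10.3% ± 0.538, 10.7% ± 0.644 and 11.1% ± 0.214 (SD, n = 3), and in both woods the libraries of all 3 regions overlapped. The likeness of the summed shares between the woods follows from the rule. The likeness between the regions was not set by the rule, but no other set of genes was compared. It is therefore not read as particular to these genes. The lowest single library was tension Region 1 replicate 1 at 9.83% and the highest was normal Region 3 replicate 3 at 11.6%.

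**Figure D1:**
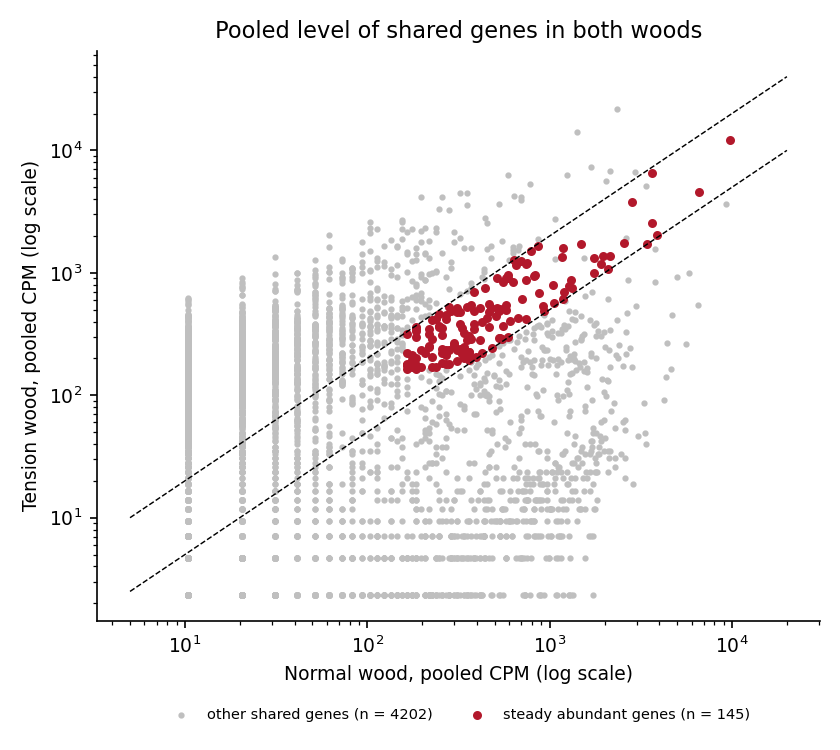
Pooled CPM of every shared gene in normal wood (horizontal, log scale) and tension wood (vertical, log scale), with dashed lines at ratios of 0.5 and 2 and the 145 steady abundant genes in red. The red genes lie between the lines by the rule, and many equally abundant genes lie outside them.

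Of the 371 shared genes whose smaller pooled CPM reached that of the lowest steady gene (164 CPM), 150 were in the band, 122 were below it and 99 above it. Within the set, 76 genes had the higher pooled level in normal wood and 69 in tension wood, and 50 had a ratio from 0.8 to 1.25. The median log2 ratio was -0.08 for the steady genes and 0.44 for all shared genes. At the rank limit, Potri.013G138900.v4.1, Potri.003G113400.v4.1 and Potri.005G025700.v4.1 were the last inside, with smaller CPM values of 165, 164 and 164. The first outside were Potri.008G170400.v4.1 and Potri.019G079101.v4.1 at 162 CPM each and Potri.005G085500.v4.1 at 155 CPM. At the ends of the ratio band, Potri.014G079000.v4.1 was just inside at 0.502 and Potri.013G004400.v4.1 at 1.97, while Potri.003G159200.v4.1 at 0.498 and Potri.001G292900.v4.1 at 2.02 were just outside.

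The set spans a wide range of levels. By the smaller pooled CPM, 16 genes were at 1000 CPM or more, 30 from 500 to 1000, 44 from 250 to 500 and 55 below 250. The 10 most abundant took 3.99% of all normal and 3.81% of all tension counts. A steady gene had between 16 and 940 counts in all normal libraries together (median 37) and between 70 and 5167 in all tension libraries (median 171). In normal wood 82 of the 145 had a count in every library, and in tension wood 123 had one. By the number in their identifiers, 17 of the genes carry chromosome 1 and 17 chromosome 10, 13 each chromosomes 6 and 8, and the rest are spread over 15 further chromosomes and 1 unplaced scaffold. The 371 equally abundant shared genes had 39, 31, 33 and 28 on chromosomes 1, 10, 6 and 8.

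Potri.010G012100.v4.1 was the most abundant steady gene, with a pooled level of 9718 CPM in normal and 12119 CPM in tension wood. In normal wood its level was 10367, 12585 and 6297 CPM in replicates 1 to 3 of Region 1, 11703, 7908 and 5655 CPM in Region 2, and 11474, 10692 and 6236 CPM in Region 3. Normal replicate 3 was the lowest in all 3 regions, and no region stood apart from another. In tension wood its level was 10291, 9926 and 10090 CPM in Region 1, 11906, 13727 and 17440 CPM in Region 2, and 15922, 16700 and 16581 CPM in Region 3. Every tension library of Regions 2 and 3 lay above every tension library of Region 1, whereas Regions 2 and 3 overlapped.

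**Figure D2:**
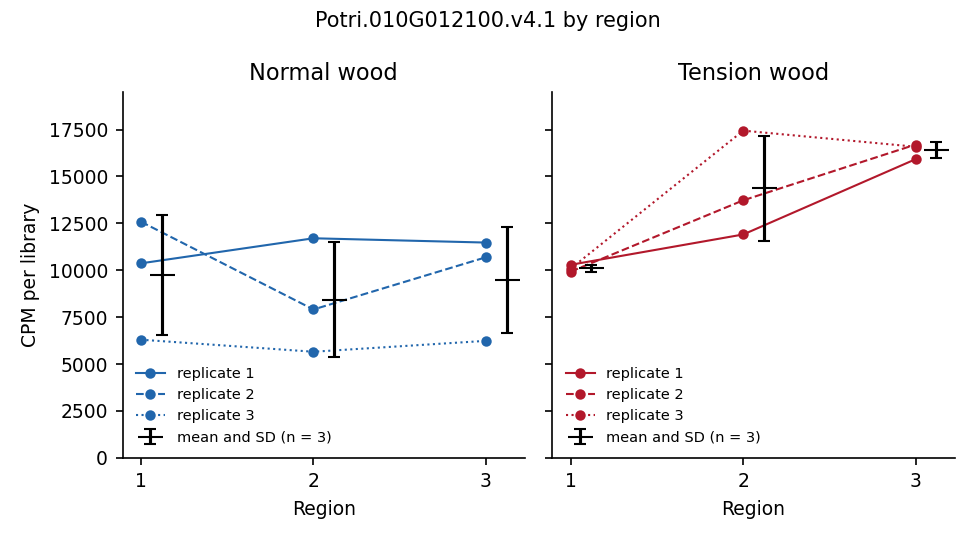
Level of Potri.010G012100.v4.1 (CPM per library, vertical) by region (horizontal) in normal wood (left) and tension wood (right), with a line for each biological replicate and black bars for the mean and SD (n = 3). Tension libraries sit between 9926 and 10291 CPM in Region 1 and between 15922 and 16700 in Region 3, while normal libraries spread from 5655 to 12585 in no order of regions.

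The region comparisons address spatial differences within the forming xylem. In tension wood, Potri.010G012100.v4.1 rose from 10102 ± 183 CPM in Region 1 to 16401 ± 419 CPM in Region 3 (SD, n = 3). Its fitted log2 fold change was 0.72 (SE 0.09, edgeR quasi-likelihood test with Benjamini-Hochberg adjusted p = 6.8e-07, higher in 3 of 3 replicates). Region 2 was also higher than Region 1, at 14358 ± 2821 CPM, and the log2 difference was 0.52 (SE 0.09, edgeR adjusted p = 0.00054, higher in 3 of 3 replicates). The number of cells that express a gene and its RNA per cell cannot be told apart in these samples, in either direction of change. In normal wood its log2 fold change from Region 1 to Region 3 was -0.11 (SE 0.19, edgeR adjusted p = 0.857). Taken over the 3 regions together, its replicates differed by more than counting noise. The chi-square over degrees of freedom was 9.86 in normal and 7.53 in tension wood, where 1 is the value counting alone gives. The tension value came mostly from Region 2, with an SD of 2821 CPM, against 183 in Region 1 and 419 in Region 3.

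Both calls depended on the replicates kept. For Region 3 against Region 1 the gene was not called without tension replicate 1 (log2 fold change 0.65, edgeR adjusted p = 0.095) or without tension replicate 2 (0.71, adjusted p = 0.788), and over all alternatives the adjusted p ran from 3.9e-07 to 0.788. For Region 2 against Region 1 it was not called without replicate 1, 2 or 3 (adjusted p = 0.105, 0.900 and 0.979, with a log2 fold change of 0.32 without replicate 3) or by DESeq2 (adjusted p = 0.997), and its adjusted p ran from 0.00063 to 0.997.

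No other steady gene was called between regions of tension wood. Of the 145, 122 passed the filter on low counts. The edgeR test called 1 of 122 for Region 3 against Region 1, where 0.342% of all 1171 genes tested were called and 0.171% were called higher. An unadjusted p under 0.05 was reached by 8 of the 122, against 6.66% of all genes. For Region 2 against Region 1 it called 1 of 122, where 0.171% of all genes were called and 0.0854% were called higher, and 5 of the 122 had an unadjusted p under 0.05, against 4.27%. For Region 3 against Region 2 edgeR called 0 of 122, as did DESeq2 (8 with an unadjusted p under 0.05 in edgeR, where 4.78% of all genes tested reached that level and 0% were called). The median log2 fold change of the steady genes was 0.05 for Region 3 against Region 1, with -0.01 over all genes tested, and -0.01 for Region 2 against Region 1, with 0.01 over all genes. All 122 had fitted values within 2-fold between Regions 1 and 2, and 117 did between Regions 1 and 3. Between Regions 2 and 3, 114 did, with log2 fold changes from -1.06 to 1.44. The share of all 1171 genes within 2-fold was not counted, so these numbers are not read as particular to the steady genes.

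**Figure D3:**
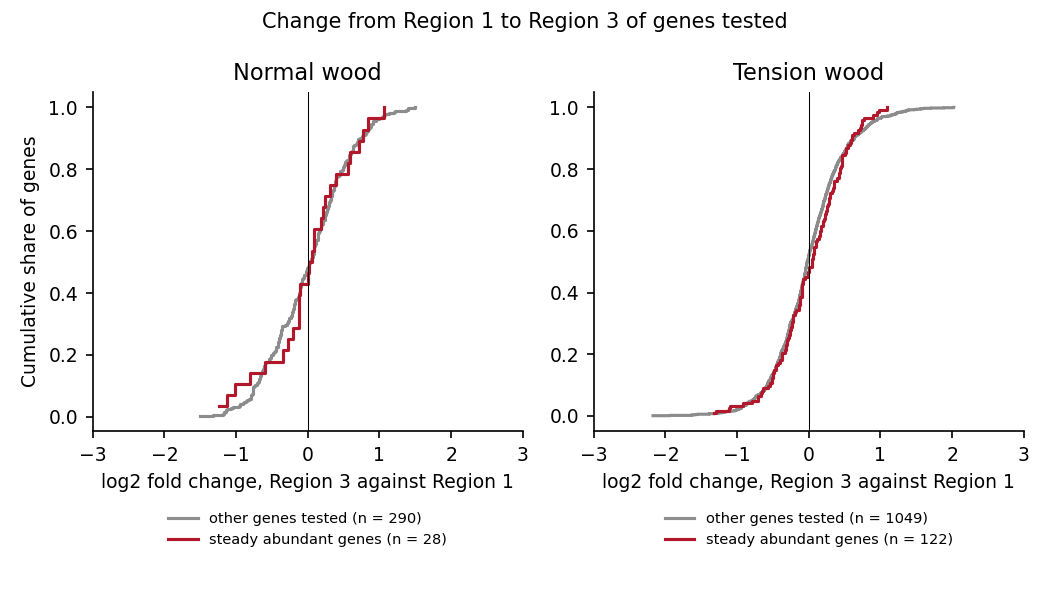
Cumulative share of genes (vertical) by log2 fold change from Region 1 to Region 3 (horizontal) in normal wood (left) and tension wood (right), for steady abundant genes (red) and the other genes tested (grey). The red and grey curves run close together in both woods, and the medians of the steady genes are 0.04 in normal and 0.05 in tension wood.

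The largest fitted changes from Region 1 to Region 3 of tension wood did not pass the test. Potri.014G168900.v4.1 had 37, 24 and 31 counts in Region 1 and 20, 9 and 9 in the smaller libraries of Region 3 (log2 fold change 1.10, SE 0.36, edgeR adjusted p = 0.277). For Potri.004G207100.v4.1 the fitted log2 difference was 0.99 (SE 0.59, adjusted p = 0.840), and the value turned to -0.24 without tension replicate 1. Among those with lower fitted values in Region 3, Potri.004G099200.v4.1 had -1.32 (SE 0.85, adjusted p = 0.871) and Potri.013G161500.v4.1 had -1.29 (SE 0.59, adjusted p = 0.662). The libraries of Regions 1 and 3 did not overlap for 10 of the 122, of which 4 were higher in Region 3 (4.87% of all genes tested) and 6 lower (6.40%). The sign of the change was the same in 3 of 3 replicates for 30 of 122, against 24.7% of all genes tested. From Region 1 to Region 2 the libraries did not overlap for 7 higher (5.29%) and 7 lower genes (5.98%), and the sign was the same in 3 of 3 replicates for 33 (27.2%). From Region 2 to Region 3 they did not overlap for 7 higher (4.61%) and 2 lower genes (4.27%), and the sign was the same for 25 (22.3%).

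In normal wood only 28 of the 145 passed the filter, and edgeR called 0 of them for Region 2 against Region 1, Region 3 against Region 1 and Region 3 against Region 2. Over all 318 genes tested, 0%, 0.314% and 0% were called. Unadjusted p-values under 0.05 numbered 2, 1 and 1 of the 28, with 4.09%, 8.49% and 6.60% over all genes tested, and DESeq2 also called 0 in each. The median log2 fold change of the 28 was -0.10, 0.04 and 0.19 in that order, and over all genes it was -0.02, 0.03 and -0.03. Between Regions 1 and 2 the libraries did not overlap for 0 higher (5.97%) and 1 lower gene (6.29%), and the sign was the same in 3 of 3 replicates for 7 of 28 (28.3%). Between Regions 1 and 3 the counts were 0 (6.92%), 2 (5.66%) and 7 (29.2%), and between Regions 2 and 3 they were 0 (4.09%), 0 (4.40%) and 4 (26.1%). The floor of 3 counts lay between 149 and 480 CPM per normal library, so a change of the less abundant genes was not detectable at this depth.

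Whether the regional change differed between the woods was tested in 1 fit over all 18 libraries, which 53 of the 145 could enter. For Region 2 against Region 1 edgeR called 0 of 53 (9 with an unadjusted p under 0.05, where 9.77% of all 573 genes reached it and 0% were called), and DESeq2 called 0. For Region 3 against Region 1 edgeR called 16 of 53, all lower in tension relative to normal wood, where 8.55% of all genes were called and 0% were called higher. An unadjusted p under 0.05 was reached by 28 of 53, against 25.3% of all genes. The median over all genes in that fit was -1.34 and that of the steady genes was -1.35. The normalization factors moved with the region in tension wood, from 0.444 to 0.506 in Region 1 and from 0.834 to 1.54 in Region 3, and from 1.36 to 1.43 over all normal libraries. With library totals as the scale the median over all genes was -0.17, and edgeR called 0 of 49 steady genes (5 with an unadjusted p under 0.05). DESeq2 called 0 of 53 (1 with an unadjusted p under 0.05). The steady genes called turned to the higher side at a minimum count of 3 (1 gene) and without normal replicate 1 (3 genes) or 3 (1 gene), so neither the number nor the direction of the 16 calls held under these alternatives.

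Potri.010G012100.v4.1 lay higher than the median of all genes in that comparison by 0.78 on the log2 scale, with a fitted value of -0.56 (SE 0.32, edgeR adjusted p = 0.250). Over the 12 alternatives its distance from the median ran from 0.37 to 0.93, its fitted value from -0.79 to 1.18 and its adjusted p from 0.00031 to 0.963. For Region 2 against Region 1 it lay 0.67 higher than the median (fitted value 0.23, adjusted p = 0.902), and without normal replicate 1 it was called at 1.29 (adjusted p = 1.8e-05). For Region 3 against Region 1 it was called lower without tension replicate 1 (-0.79, adjusted p = 0.038) and higher at a minimum count of 3 and without normal replicate 1 or 3 (1.18, 1.14 and 1.03, adjusted p = 0.013, 0.00031 and 0.017).

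Behind it in abundance, Potri.002G025200.v4.1 ranged from 4468 to 9602 CPM in normal libraries (median 5968) and from 3162 to 6550 CPM in tension libraries (median 4932). The libraries of the woods overlapped. Over all regions of tension wood together, the gene had the highest spread between replicates of all steady genes, with a chi-square over degrees of freedom of 16.5. In Region 2 of tension wood its replicates stood at 5136, 3383 and 6550 CPM. The fitted change from Region 1 to Region 3 of tension wood was 0.0008 on the log2 scale (SE 0.18, edgeR adjusted p = 0.999). In the difference between woods for Region 3 against Region 1 it was 1 of the 16 called (log2 -1.40, SE 0.38, edgeR adjusted p = 0.013). It lay -0.06 from the median of all genes in that fit, and with library totals its value was -0.07 (adjusted p = 0.943).

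Potri.011G122700.v4.1 varied little within tension wood. Its tension libraries ran from 5983 to 7162 CPM (median 6416). Over all regions together, their spread within regions was that of counting noise, with a chi-square over degrees of freedom of 1.01. All of them lay above all normal libraries, which ran from 2611 to 5233 CPM (median 3554).

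**Figure D4:**
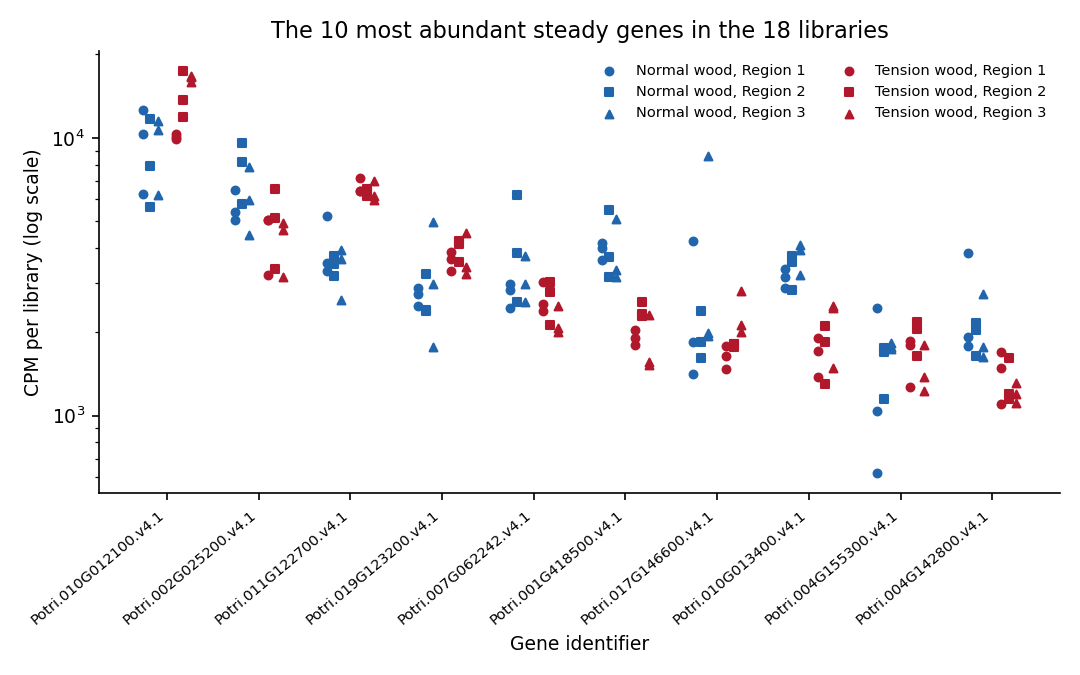
Level of the 10 most abundant steady genes (CPM per library on a log scale, vertical) in the 18 libraries, ordered by the smaller pooled CPM, with normal wood in blue, tension wood in red and a marker shape for each region. For Potri.011G122700.v4.1 every tension library lies above every normal library, for Potri.001G418500.v4.1 and Potri.010G013400.v4.1 every tension library lies below, and the other 7 genes overlap.

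Every tension library lay below every normal library for Potri.001G418500.v4.1 and Potri.010G013400.v4.1. The former ran from 3148 to 5520 CPM in normal libraries (median 3735) and from 1523 to 2564 CPM in tension libraries (median 2026). The latter ran from 2824 to 4103 CPM (median 3370) and from 1295 to 2479 CPM (median 1840). Both had spreads near or below counting noise in 1 wood only. The chi-square over degrees of freedom was 0.836 for Potri.001G418500.v4.1 in tension wood and 0.442 for Potri.010G013400.v4.1 in normal wood. In its other wood each gene had a value above 1, the value counting alone gives.

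In the set as a whole, the 9 libraries of each wood overlapped for 138 of the 145 genes. Normal wood lay wholly above tension wood for 4 and wholly below it for 3, against 22.3% of all shared genes that did not overlap in either direction and 36.1% of the 371 equally abundant ones. The rule used this contrast, so nothing is read from the difference. The other genes of these 7 were Potri.010G193100.v4.1 and Potri.008G157500.v4.1, higher in normal wood, and Potri.013G151366.v4.1 and Potri.014G024100.v4.1, higher in tension wood. These 4 were named after their values were seen.

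Of the remaining abundant genes, Potri.019G123200.v4.1 and Potri.007G062242.v4.1 were also among the 5 with the lowest spread over all 18 libraries. The former ran from 1759 to 4976 CPM in normal wood (median 2740) and from 3229 to 4534 CPM in tension wood (median 3665). The latter ran from 2444 to 6225 CPM (median 2972) and from 2004 to 3036 CPM (median 2479). Their tension libraries varied by less than 2-fold from lowest to highest, and the normal ones by more, with counting noise included.

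The CPM of the other 3 of the 10 most abundant genes spread more widely in normal than in tension wood. These ranges include counting noise, which weighs more in the shallower normal libraries. Potri.004G155300.v4.1, for example, had 7 to 28 counts per normal library and 11 to 161 per tension library. Whether the spreads differ beyond depth was not tested. Potri.017G146600.v4.1 stood at 8634 CPM in normal Region 3 replicate 3 and at 4257 CPM in normal Region 1 replicate 3, while its other normal libraries ran from 1407 to 2372 CPM. Its chi-square over degrees of freedom was the highest of the set in normal wood, 13.4, and 0.814 in tension wood, where it ran from 1468 to 2821 CPM. Potri.004G155300.v4.1 ran from 621 to 2447 CPM in normal and from 1225 to 2179 CPM in tension wood. Potri.004G142800.v4.1 ran from 1625 to 3846 CPM in normal wood, the highest in Region 1 replicate 2, and from 1097 to 1694 CPM in tension wood.

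The spread of each gene over all 18 libraries was taken as the SD of log2(CPM + 50), which includes counting noise and the difference between the woods. Its median was 0.85 and its range 0.36 to 1.49. The lowest belonged to Potri.006G141700.v4.1 at 0.36, followed by Potri.006G124800.v4.1 at 0.37, Potri.019G123200.v4.1 at 0.37, Potri.007G062242.v4.1 at 0.38 and Potri.004G074900.v4.1 at 0.40. Potri.006G141700.v4.1 ran from 498 to 1356 CPM in normal wood (median 812) and from 761 to 1345 CPM in tension wood (median 974). Potri.006G124800.v4.1 had a median of 666 CPM in both woods, with ranges of 452 to 1422 and 443 to 779 CPM. Potri.004G074900.v4.1 had medians of 887 CPM in normal and 711 CPM in tension wood. The rank on this measure favours deeply counted genes, and neighbours in it do not differ beyond their spread.

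The 5 genes with the highest spread ran from 1.29 to 1.49, and each had under 60 counts in normal wood. Potri.010G187900.v4.1, the highest, had 24 normal and 158 tension counts, and it was at 0 counts in 3 normal libraries and in tension Region 3 replicate 2. Potri.002G144600.v4.1 had 18 of its 53 normal counts in Region 3 replicate 3, and in tension Region 3 it had 23, 0 and 0 counts. Potri.004G193800.v4.1 had 17 of its 31 normal counts in Region 2 replicate 2. Potri.006G122600.v4.1 had 10 of 24 normal counts in Region 1 replicate 1, and Potri.006G254100.v4.1 had 11 of 22 there. In normal wood 14 of the 145 had over 40% of their counts in 1 library, and in tension wood 0 had.

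Within regions, spread between replicates was set beside that of all genes with at least as many counts as the lowest steady gene. That reference includes the steady genes and was not matched on counts. Steady genes lay near it in normal wood and somewhat above it in tension wood. The median chi-square over degrees of freedom was 1.58 in normal wood, with 1.65 over the 1050 normal genes that had at least as many counts as the lowest steady gene. In tension wood it was 1.83, with 1.59 over 1600 genes. A value above 3 was found for 24 of 145 in normal wood (19.5% of the genes with as many counts) and for 29 of 145 in tension wood (14.6%). The Spearman correlation across the 145 genes had a median of 0.575 between normal libraries and 0.792 between tension libraries, with 0.603 and 0.840 across all shared genes. Between the woods it was 0.586, with 0.0973 across all shared genes, a difference that is set by the rule. Genes within a library are not independent replicates, and these libraries differ in depth.

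A steady pooled ratio did not carry over to every region. When counts were pooled within each region, 114 genes stayed inside 0.5 to 2 in Region 1, 121 in Region 2 and 103 in Region 3, and 69 did so in all 3. Over all shared genes 2.35% did, and of the 371 equally abundant ones 19.7% did. These shares are set beside this count although the rule used the contrast. In 56 genes 2 regions were inside, in 19 only 1 was, and in Potri.008G097500.v4.1, named after its values were seen, none was. That gene had 13, 4 and 1 counts in Regions 1 to 3 of normal wood and 37, 39 and 10 in tension wood. Of the 10 most abundant genes, 9 stayed inside in all 3 regions, while Potri.001G418500.v4.1 stood at 0.489, 0.600 and 0.462. The ratio of Potri.010G012100.v4.1 was 1.03 in Region 1, 1.497 in Region 2 and 1.646 in Region 3. The count of 69 was 42 without normal replicate 1, which held the largest normal library.

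**Figure D5:**
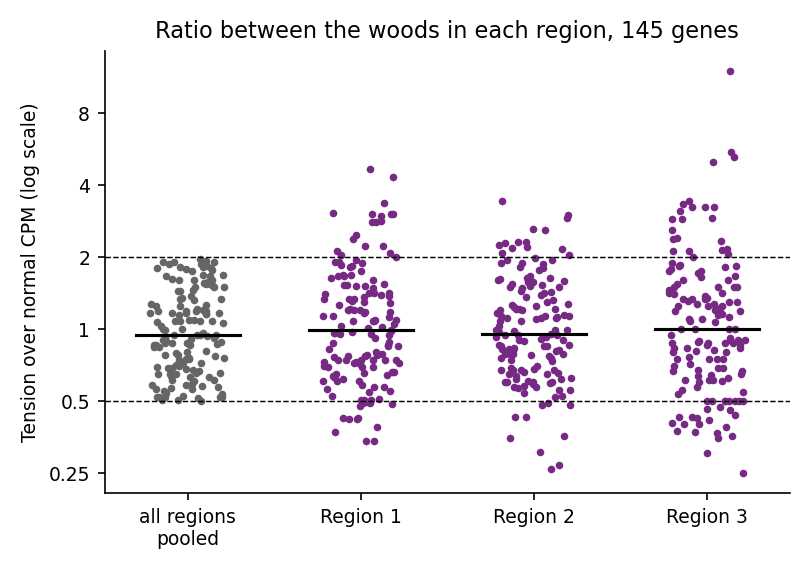
Ratio of tension over normal CPM (vertical, log scale) for the 145 steady abundant genes with all regions pooled and in each region, with black bars at the medians and dashed lines at 0.5 and 2. All pooled ratios lie inside the lines by the rule, and 114, 121 and 103 genes lie inside them in Regions 1 to 3.

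The extremes of the regional ratios lay well outside the band. In Region 1 they ran from 0.340 for Potri.018G100400.v4.1 to 4.66 for Potri.002G194000.v4.1, and in Region 2 from 0.259 for Potri.015G129800.v4.1 to 3.45 for Potri.006G254100.v4.1. In Region 3 the lowest was 0.250 for Potri.010G092300.v4.1, and Potri.006G122600.v4.1 had 1 normal count against 24 tension counts. These genes were named after their values were seen. The median log2 ratio stayed near 0 in each region, at -0.01, -0.07 and 0.00 in Regions 1 to 3. The ratio was above 1 in all 3 regions for 35 genes and below 1 in all 3 for 38.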

How the data were processed

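The authors' deposited tables hold whole-number counts per gene and library, 1 table for each wood. A QIAseq UPX kit, which reads the 3' ends of transcripts, was used per the labels' protocols. The tools named per the submitters' processing notes are featureCounts, STAR and UMI-tools. Versions, settings, strand use and genome build are not given in the sources used here, nor is whether a count is a read or a molecule, and near-identical copies may share counts. All columns matched a labelled sample, and 0 were left unused.

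The members, gene lists and tests were chosen with earlier results of these data known. CPM are relative to all counts of a library. Regions were compared within each wood with edgeR 4.0.16 (quasi-likelihood F test, R 4.3.3) on the counts, with TMM factors, filterByExpr at a minimum count of 10, Benjamini-Hochberg adjustment over all genes tested, a threshold of 0.05 and the biological replicate as a block, since each label ties 3 regions to 1 replicate. In the data, deviations of same-numbered regions correlated across genes with a median of 0.052 (normal wood) and -0.0072 (tension wood). One fit over both woods gave the difference between them, over 18 libraries with 6 blocks and the 4347 shared genes. P-values weigh a regional change, or its difference between the woods, against the spread left between these replicates once the block is fitted. Spread within regions was measured as chi-square over degrees of freedom, summed over the 3 regions of a wood, with library totals as exposure. The fits were tested on simulated data. DESeq2 1.42.0 was an alternative, with library totals, no block, minimum counts of 3 and none, thinning to the smallest total, and leaving out replicates.

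Named genes were the 10 most abundant, those at the limits of the rule and those called in a region comparison. Also named were the 5 with the lowest and the 5 with the highest spread, and those with the largest changes in tension wood. A recalled xylem marker that is a steady gene was named as well. Since the identifiers have no descriptions, at most 2 genes per direction are named in a comparison, and lists that needed descriptions, including markers of tissues outside the xylem, were not analysed here.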

Additional observations from a re-analysis of the deposited data

Results flagged for a closer look

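The change from Region 1 to Region 3 was tested for a difference between the woods, and 16 of 53 steady genes passed (edgeR quasi-likelihood test, adjusted p under 0.05), all lower in tension relative to normal wood. Over all 573 genes tested 49 passed (8.55%), also all lower, with a median of -1.34, and 0 of 49 steady genes passed with library totals and 0 of 53 with DESeq2. The 2 with the lowest adjusted p were Potri.007G062242.v4.1 (log2 -1.71, SE 0.45, adjusted p = 0.0107) and Potri.011G152500.v4.1 (log2 -2.65, SE 0.71, adjusted p = 0.0115). Relative to the median of all genes in that fit they lay at -0.37 and -1.32. With library totals as the scale their values were -0.46 and -1.44 and neither passed (adjusted p = 0.856 and 0.850), and over all alternatives their adjusted p ran from 0.00075 to 1 and from 0.011 to 0.963.

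In CPM, Potri.013G161500.v4.1 rose in 3 of 3 normal replicates and fell in 3 of 3 tension replicates from Region 1 to Region 2. Its mean change was 180 CPM in normal and -169 CPM in tension wood, a difference of -349 CPM that was not tested. Its normal libraries held 2 to 7 counts each. In normal replicate 3 it had 3 counts in both regions, so its rise there reflects only the smaller library total of Region 2. The gene was picked out for this pattern, and the share of genes that show it was not counted. The pattern is therefore not read as particular to this gene. Groups of 3 libraries are too small to be screened for single outlying samples.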

How the results depend on the processing

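Choosing the genes with a band of 0.67 to 1.5 kept 82 of the 145 in the set, and leaving out a biological replicate and choosing again kept 113 to 136. Leaving out a single library, tried after seeing the data, left 130 to 144 of the 145 inside the band, the fewest without normal Region 1 replicate 1. The count inside the band in all 3 regions was 42 to 64 without a replicate.

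In normal wood the 1 gene of 318 called for Region 3 against Region 1, no steady gene, was not called (0 genes) with no replicate block, library totals, DESeq2, minimum count 3 and no filter, and without a replicate the count was 0 to 1. In tension wood DESeq2 called 0 genes for Region 2 against Region 1 (2 as designed), 0 of them steady, and leaving out a replicate gave 0 to 1, with 0 steady genes each time. For Region 3 against Region 1 (4 as designed) DESeq2 and thinning called 1 each and no filter 8, and leaving out a replicate gave 0 to 5, with 0 to 1 steady genes. For Region 3 against Region 2 leaving out a replicate gave 0 to 1. Without the replicate block the steady genes called in either wood were as many, with 5 genes in all for Region 3 against Region 1 of tension wood.

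For the difference between woods, the 49 genes called for Region 3 against Region 1 (16 steady) became 47 (14 steady) with no replicate block, 1 (0 steady) with library totals, 0 (0 steady) with DESeq2 and with thinning, 3 (1 steady) at a minimum count of 3 and 7 (2 steady) with no filter. Leaving out a replicate gave 3 to 63 genes and 0 to 20 steady ones. For Region 2 against Region 1 leaving out a replicate gave 0 to 3 genes and 0 to 1 steady ones. The cause was not tested. The value of Potri.007G062242.v4.1 turned to 0.023 at a minimum count of 3, and it ran from -1.99 to 0.10 without a replicate. That of Potri.010G012100.v4.1 turned to 0.74 (library totals), 0.65 (DESeq2), 1.18 (minimum count 3), 1.00 (thinning), 1.14, 0.95 and 1.03 (without normal replicate 1, 2 and 3), and it was -0.79 without tension replicate 1. Potri.004G207100.v4.1 ran from -0.24 to 1.59 without a replicate. Depth limits normal wood most: 28 of the 145 passed its filter.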
